A study of Mus musculus with 8 samples.

Results

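Osteopontin, encoded by Spp1, and 7 genes for its cell surface receptors (Cd44, Itgav, Itgb1, Itgb3, Itgb5, Itga4 and Itga9) were followed across the cells of fibrotic and normal mouse livers. The 8 genes were chosen by symbol, and all 8 were found among the 55450 genes of the single-cell matrices. Livers came from 3 groups of wild-type C57BL/6 mice. In the HFD+F+CCl4 group (n = 3), mice received a high-fat diet, a fructose solution to drink and intraperitoneal carbon tetrachloride (CCl4), a hepatotoxin, for 16 weeks, and in the WD+F+CCl4 group (n = 3) a western diet replaced the high-fat diet. Control mice (n = 2) had normal diet and drinking water, and the labels give no age. The 2 models of nonalcoholic steatohepatitis (NASH) shared fructose and CCl4, so that diet and toxin cannot be told apart against the controls. Each liver was dissociated with enzymes and its cells were sequenced as a single droplet library, without sorting.

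Osteopontin is a secreted phosphoglycoprotein of the SIBLING family that acts as a cytokine and as a matrix protein. It is known in the liver as a product of bile duct cells, of activated stellate cells and of macrophages that gather in steatotic and fibrotic tissue. Its arginine-glycine-aspartate (RGD) motif binds integrins that contain the αv subunit (Itgav) paired with β1, β3 or β5 (Itgb1, Itgb3, Itgb5). A neighbouring site, exposed by thrombin, binds α4 and α9 integrins (Itga4, Itga9), and the hyaluronan receptor CD44 is a further receptor.

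The stretch of Spp1 that encodes the integrin-binding motif is shown because all αv integrins in this gene set are read against it. In the GENCODE transcript of Spp1 (GRCm38, chr5:104439451-104439525, plus strand), the codons of the RGD motif lay in exon 6 of 7. They were codons 144 to 146 of 294, and no other run of this kind occurred in the coding sequence. The capitals mark the 3 RGD codons.
Spp1 RGD region: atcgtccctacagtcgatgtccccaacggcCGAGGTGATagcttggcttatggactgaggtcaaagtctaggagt

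Promoters are shown for Spp1 and Itgav, since both rose in monocytes of the models and since, among the 7 members with a RefSeq promoter (Itgb3 had none), only these 2 held the myeloid PU.1 motif searched for. The motif was spelled GAGGAAGT and was looked for on both strands from 250 bases before to 50 bases after each start. The Spp1 match began 113 bases before the start, and that of Itgav lay 9 bases before the start on the opposite strand. A second RefSeq promoter of Spp1, with a window from chr5:104435942, held no match and is not shown. The same letters occurred in 3.20% of 32851 promoters of this length, so a match is a description of the sequence. Both sequences end at the base before the start (RefSeq, GRCm38.p6), Spp1 from chr5:104434861-104435110 and Itgav from chr2:83724147-83724396, both on the plus strand. The capitals mark the motif.
Spp1 promoter: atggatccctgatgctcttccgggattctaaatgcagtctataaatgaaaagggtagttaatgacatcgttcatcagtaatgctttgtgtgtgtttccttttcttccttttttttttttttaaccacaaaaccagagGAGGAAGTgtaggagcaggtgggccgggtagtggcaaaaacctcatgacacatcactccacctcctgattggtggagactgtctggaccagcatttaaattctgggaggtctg
Itgav promoter: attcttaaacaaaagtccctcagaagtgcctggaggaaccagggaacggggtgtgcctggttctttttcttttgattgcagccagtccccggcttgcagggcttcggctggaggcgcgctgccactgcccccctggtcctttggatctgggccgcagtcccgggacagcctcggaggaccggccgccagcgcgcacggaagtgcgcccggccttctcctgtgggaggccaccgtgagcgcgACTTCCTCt

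After filtering (over 500 genes and under 25% mitochondrial UMIs), 80474 of 88581 barcodes were kept, 4168 to 11999 per mouse. A UMI, or unique molecular identifier, marks 1 captured transcript. Kept cells of control mouse 1 and control mouse 2 held 35823037 and 5305581 UMIs, against 45765722 to 63878061 in the NASH mice, so control mouse 2 was the shallowest library, with a median of 992.5 UMIs per cell. Between libraries, 732 barcode sequences (0.918%) were shared by 2 or more. Cells were clustered and named from marker genes with the 8 members left out, and names below are short for "cholangiocyte-like" and so on. A pair of clusters of 1949 and 2031 cells, found almost only in control mice, were led by hepatocyte genes at low depth and stayed unnamed. Levels are in CPM, the UMIs of a gene per 1000000 UMIs when the cells of a type in a mouse are summed, and a level was used where the type had at least 20 cells. Levels are compared within a gene only.

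Cholangiocytes, the cells that line bile ducts, had the highest mean Spp1 level of all types. Their Spp1 level was 13414 and 14010.1 CPM in the control mice, 16776, 15575 and 17337 CPM in HFD+F+CCl4, and 10435 and 19306 CPM in WD+F+CCl4 mice 2 and 3 (WD+F+CCl4 mouse 1 had 2 such cells and was not used). Control and NASH mice overlapped. In single cholangiocytes, 0 to 1.14% had no Spp1 UMI. Hence nearly every cholangiocyte held the transcript, in control livers as well. Against control, the log2 fold change in cholangiocytes was 0.41 (SE 0.35, adjusted p = 0.815, edgeR) in HFD+F+CCl4 and 0.31 (SE 0.38, adjusted p = 0.842; -0.17 without WD+F+CCl4 mouse 3) in WD+F+CCl4, so no difference was called in 32 to 194 cells per mouse.

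Macrophages came next in the NASH mice. Their Spp1 level was 1235, 943 and 449 CPM in HFD+F+CCl4 and 3116, 1268 and 1092 CPM in WD+F+CCl4. The mean of the 6 NASH mice, 1350.4 CPM, was 8.50% of that of cholangiocytes (15886 CPM). Control livers gave 15 and 3 macrophage cells, too few for a level, with 83 Spp1 UMIs in the first mouse (1996 CPM, 95% Poisson interval 1590 to 2474, counting error only) and 1 UMI in the second. Thus the few macrophages of control mouse 1 lay within the range of the NASH mice. Whether macrophages as such differed between groups could not be tested. Transcripts were unevenly spread: 34.1 to 71.7% of NASH macrophages had no Spp1 UMI, and the 10% of cells with most Spp1 held 63.5 to 89.3% of the UMIs.

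**Figure D1:**
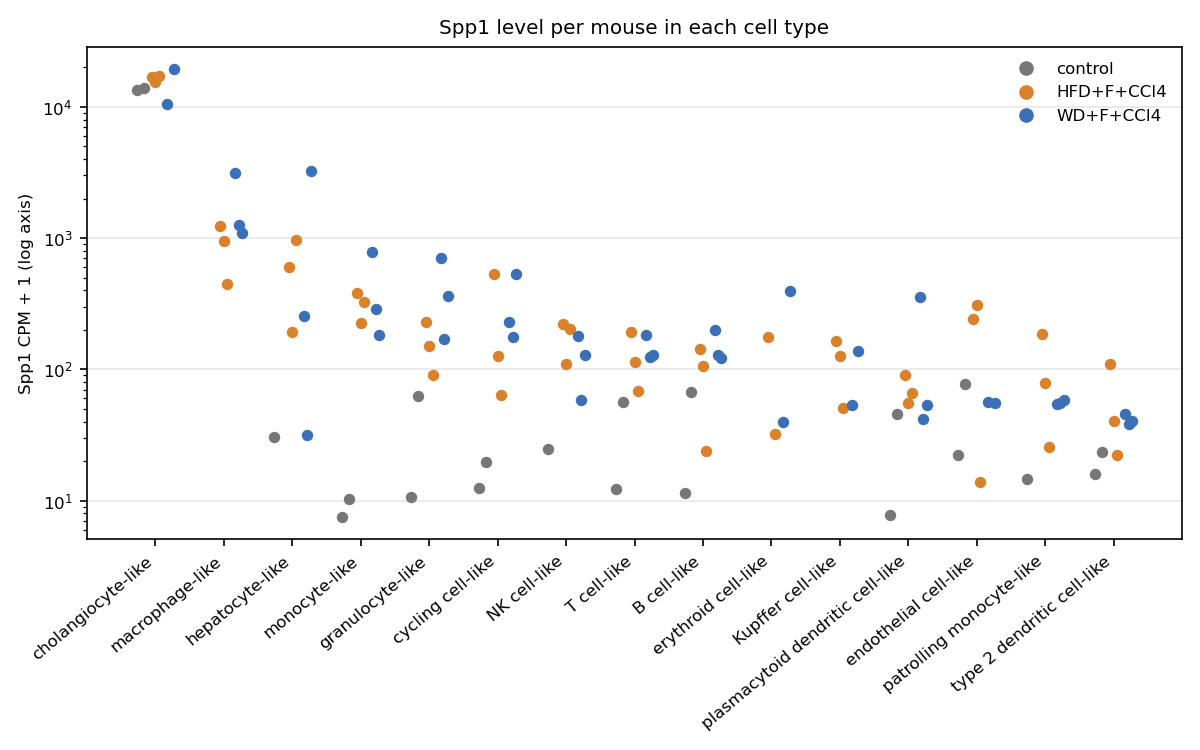
Spp1 level by marker-defined cell type, as CPM + 1 on a log axis, with 1 point per mouse and type of at least 20 cells and the 3 groups in separate colours. Cholangiocytes of all groups lay between 10435 and 19306 CPM, and macrophages of NASH mice between 449 and 3116 CPM.

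Ordered by mean log2(CPM + 1) over NASH mice, Spp1 levels ran from cholangiocytes over macrophages, hepatocytes, monocytes, granulocytes, cycling cells, NK cells, T cells, B cells, erythroid cells, Kupffer cells, plasmacytoid dendritic cells, endothelial cells and patrolling monocytes to type 2 dendritic cells. Types with fewer than 4 NASH mice, such as stellate cells, were not ranked, and by mean CPM the lower ranks shift, with erythroid cells (160.3 CPM) above NK (148 CPM), T (134 CPM) and B cells (119 CPM). No pair of neighbours passed the exact two-sided sign-flip permutation test (lowest adjusted p = 0.4375), which does not show that neighbours were alike. For cholangiocytes and macrophages the difference was 4.05 on the log2(CPM + 1) scale (SD 0.81, range 3.04 to 5.27), larger than its spread in 5 of 5 mice and without overlap of levels, with an exact permutation p of 0.0625, the smallest that 5 mice allow. Hepatocytes spread most widely, with 603, 192 and 965 CPM in HFD+F+CCl4 and 252, 30.4 and 3238 CPM in WD+F+CCl4 against 29.3 CPM in control mouse 1. In these hepatocyte-like cells the 7 cholangiocyte markers summed to 186 CPM in control mouse 1 (Krt19, Krt7, Epcam and Cldn7 at 0) and 288 to 955 CPM in NASH mice, and their part in the Spp1 level was not tested.

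Farther apart in the order, and chosen after the values were seen, macrophages exceeded monocytes by 1.82 on the log2(CPM + 1) scale and T cells by 3.16, each in 6 of 6 mice. They exceeded patrolling monocytes, the vessel-surveying subset, by 4.17 in 6 of 6 mice and Kupffer cells, the resident liver macrophages, by 3.30 in 5 of 5 mice. Adjusted over the 8 pairs looked at, the exact permutation p was 0.0625 for the first 3 and 0.0833 for Kupffer cells. Kupffer cells carried 163, 125 and 49.6 CPM of Spp1 in HFD+F+CCl4 and 52.4 and 138 CPM in WD+F+CCl4 mice 2 and 3. Stellate cells, the main collagen producers of the liver, reached 20 cells only in HFD+F+CCl4 mice 1 and 2, with 99.96 and 437 CPM of Spp1.

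Macrophages, monocytes, patrolling monocytes and Kupffer cells were pooled and clustered again, without the 8 members. The sub-clusters named macrophage thus need not match the macrophages above. In HFD+F+CCl4 mouse 3 the largest of them held 1816 cells, against 1337 macrophages above. The sub-clusters named lipid-associated macrophage-like from Trem2, Gpnmb, Cd9, Fabp5 and Lpl carried Spp1 at 3191, 1543 and 1456 CPM in HFD+F+CCl4 and 4053, 2427 and 2089 CPM in WD+F+CCl4. The other macrophage sub-clusters of the same mice carried 818, 207 and 450.3 CPM and 426, 456 and 375 CPM. Thus the lowest lipid-associated level exceeded the highest of the others. The within-mouse difference was 2.45 on the log2(CPM + 1) scale (SD 0.57, n = 6, higher in 6 of 6 mice), with an exact sign-flip permutation p of 0.03125, the smallest that 6 mice allow. The 8 members were compared in this way, and no call is made from it. Since sub-clusters were made from other genes of the same cells, the value describes them and is no independent test.

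**Figure D2:**
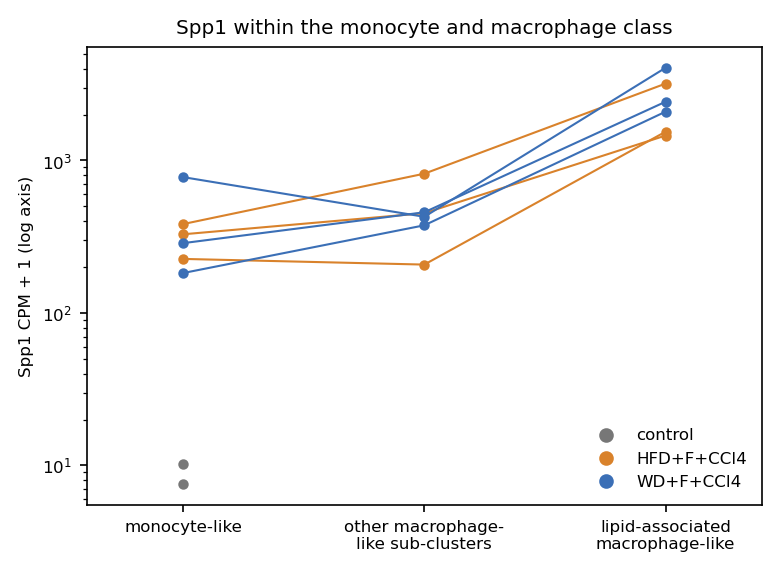
Spp1 level in monocytes, in the other macrophage sub-clusters and in lipid-associated macrophage-like sub-clusters, as CPM + 1 on a log axis, coloured by group, with a line joining the values of 1 mouse (control mice have monocytes only). All 6 NASH lines climb from the second (207 to 818 CPM) to the third position (1456 to 4053 CPM). Sub-clusters came from pooled macrophages, monocytes, patrolling monocytes and Kupffer cells, so they can share cells with the monocytes shown.

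Among the receptors, Itga4, which encodes the α4 integrin subunit of leukocytes, went the other way between these sub-clusters. Its level in the lipid-associated macrophage-like sub-clusters was 143, 144 and 133 CPM in HFD+F+CCl4 and 157, 148 and 117 CPM in WD+F+CCl4 mice. The other macrophage sub-clusters had 239.8, 278 and 308 CPM and 264, 293 and 211 CPM. Monocytes, which were part of the pool clustered again, had a mean of 534 CPM in NASH mice, and their part was not tested. The groups of cells did not overlap, and the difference was -0.909 (log2, lower in 6 of 6 mice), again with an exact permutation p of 0.03125. Itgb1 was higher in 6 of 6 mice by 0.161 only. Cd44 (difference 0.006), Itgav (0.129) and Itgb5 (-0.194) lay close together in both kinds of sub-cluster.

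Cells that held the Spp1 transcripts differed between groups. Macrophages, monocytes, patrolling monocytes and Kupffer cells together (the monocyte and macrophage class) held 1.95 and 0.338% of all Spp1 UMIs in the control mice. They held 39.4, 55.0 and 41.8% in HFD+F+CCl4 and 83.5, 57.2 and 36.0% in WD+F+CCl4. The class made up 4.28 and 4.77% of the control cells and 45.6 to 61.2% of the cells of NASH mice, so its number of cells moved with the UMI share. The UMI share was higher in 6 of 6 NASH mice, 52.1 ± 17.6% (SD, n = 6) against a control mean of 1.14% (exact two-sided permutation p = 0.0357, the smallest that 6 against 2 mice allow, 0.0476 adjusted over the classes). The adjustment counted the unnamed clusters, which were found almost only in control mice. Shares of a mouse also depend on each other, so no call is made from the adjusted value. Mean shares of the class were 58.9% in WD+F+CCl4 and 45.4% in HFD+F+CCl4. For this share and those of cholangiocytes and lymphocytes, the exact permutation p between the models was 0.5 to 0.7. With 3 against 3 mice it cannot fall below 0.1, so this test could not show a difference.

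Cholangiocytes, although few, held another large part. They made up 0.408 and 0.768% of control cells and held 83.7 and 53.6% of the control Spp1 UMIs. In NASH mice they were 0.0167 to 1.66% of cells and held 53.4, 37.6 and 49.4% in HFD+F+CCl4 and 0.551, 36.5 and 53.8% of the UMIs in WD+F+CCl4 mice. The low value belongs to WD+F+CCl4 mouse 1, the liver with 2 captured cholangiocytes. Mean shares were 38.6 ± 20.1% (SD, n = 6) and 68.6% in control, and did not differ beyond the spread over mice (exact permutation p = 0.143). Lymphocytes held 5.12 and 8.88% in control and 0.636 to 2.44% in NASH mice. The 2 unnamed clusters held 7.31 and 33.5% of the control Spp1 UMIs. In NASH mice they had 1 cell each, without an Spp1 UMI. UMI shares depend on which cells survived dissociation, and over all cells of a liver a change in cell numbers and a change in RNA per cell are summed.

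**Figure D3:**
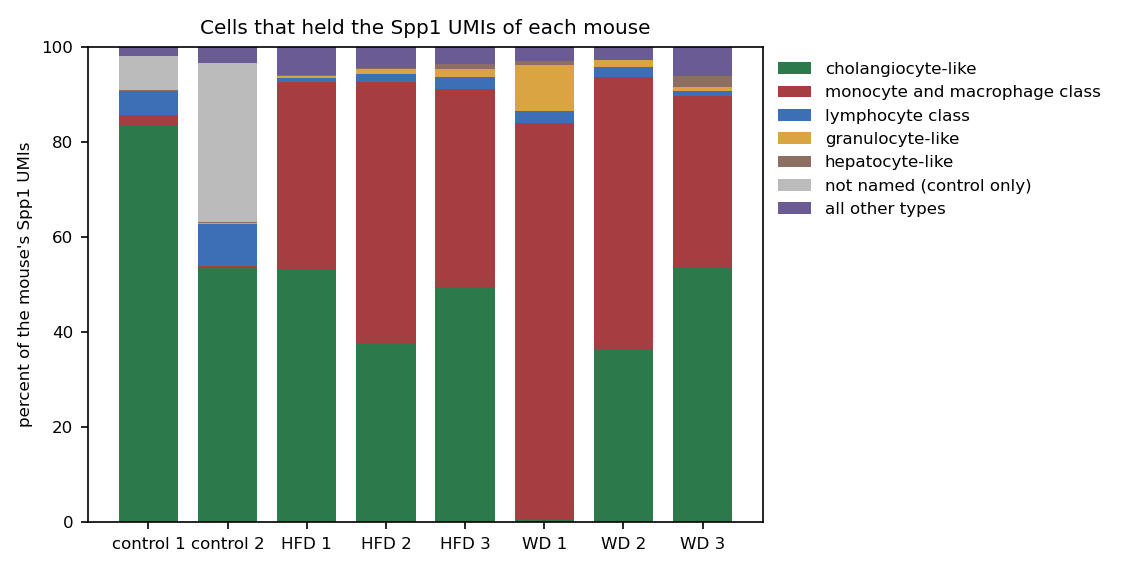
Share of each mouse's Spp1 UMIs held by classes of cells, in percent, as 1 stacked bar per mouse. The monocyte and macrophage class held 0.338 and 1.95% in the 2 control mice and 36.0 to 83.5% in the 6 NASH mice.

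Compared with control livers, Spp1, Cd44, Itgav and Itgb5 were higher over all kept cells in both models, and Itgb3 was lower in WD+F+CCl4. Thus 4 of 8 members were called in HFD+F+CCl4 and 5 of 8 in WD+F+CCl4 (edgeR, adjusted p under 0.05), where 18.9 and 21.4% of all 19787 tested genes were called. All 8 members passed the filter on low counts. With the 2 models compared to each other, 0 of 8 members and 0% of all genes were called in any of the 3 sets tested (all cells, monocyte and macrophage class, lymphocyte class). At an unadjusted p under 0.05, edgeR gave 767, 937 and 883 genes there, and DESeq2 called 46, 75 and 21. On simulated counts for this contrast DESeq2 made 82, 22 and 34 false calls in the 3 sets, against 5, 11 and 9 by edgeR. Of the members, only Itgav in lymphocytes was among those with an unadjusted p under 0.05 (log2 -0.44, adjusted p = 0.733).

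Spp1 over all kept cells was 138 and 223 CPM in the control mice, 1263, 665 and 341 CPM in HFD+F+CCl4, and 1009.8, 649 and 992 CPM in WD+F+CCl4. All NASH mice lay above both controls. By edgeR the log2 fold change was 2.16 (SE 0.48, adjusted p = 0.0205) in HFD+F+CCl4 and 2.51 (SE 0.49, adjusted p = 0.0116) in WD+F+CCl4. With either control mouse left out, adjusted p was 0.0769 to 0.119 and 0.0513 to 0.0811, so both calls rested on having 2 controls. WD+F+CCl4 against HFD+F+CCl4 gave 0.35 (SE 0.40, adjusted p = 1.00).

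**Figure D4:**
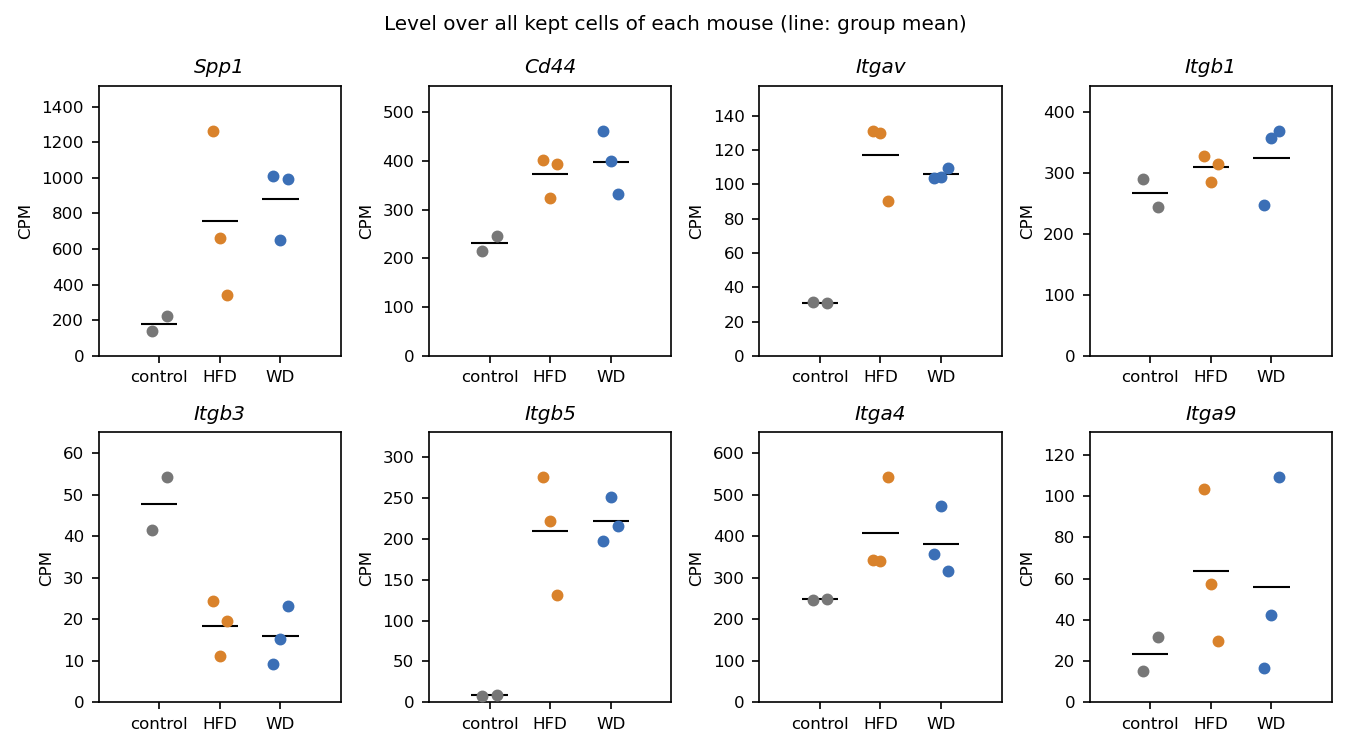
Level of each of the 8 members over all kept cells, in CPM on linear axes from 0, with 1 point per mouse in 3 groups (HFD and WD stand for HFD+F+CCl4 and WD+F+CCl4) and a line at each group mean. Itgb5 lay at 8.26 and 9.24 CPM in control and 132 to 275 CPM in NASH mice, Itgav at 30.9 and 31.3 against 90.5 to 131 CPM, while Itgb1 overlapped between groups.

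Spp1, Itgav and Itgb5 in the monocyte and macrophage class were higher in both models. These 3 of 8 members compare with 5.22 and 6.72% of all 16160 genes tested called in the HFD+F+CCl4 and the WD+F+CCl4 contrast. The class differed in makeup: monocytes were 89.0 and 92.0% of it in control mice and 4.63 to 46.4% in NASH mice, where macrophages made up 21.7 to 54.2%. Its Spp1 level was 48.7 and 17.0 CPM in control (96 and 4 UMIs), 831, 677 and 263 CPM in HFD+F+CCl4, and 1542, 643 and 613 CPM in WD+F+CCl4. The groups did not overlap, with log2 fold changes of 3.85 (SE 0.70, adjusted p = 0.0182) and 4.60 (SE 0.72, adjusted p = 0.0108). Without one or the other control, adjusted p was 0.0665 to 0.128. The median of all genes in this class shifted by 0.12 and 0.13 log2 after TMM scaling, against which these changes are to be read.

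Within monocytes alone, which both control livers held in number (411 and 183 cells), Spp1 was again higher. Its level was 6.53 and 9.24 CPM in control mice, 382, 225 and 327 CPM in HFD+F+CCl4 and 777, 286 and 182 CPM in WD+F+CCl4. Control values rested on 12 and 2 UMIs, so the fitted log2 fold changes of 5.46 (SE 0.83, adjusted p = 0.00560) and 5.88 (SE 0.82, adjusted p = 0.00247) rest on few molecules. Adjusted p was 0.131 and 0.0925 without control mouse 1. Of the 8 members, 3 were called in monocytes of each model (Spp1, Itgav, Itgb5), where 6.95 and 8.8% of all genes were. Most control monocytes (397 and 180 cells) formed a sub-cluster of their own, so monocytes of the groups were not the same clusters. The 6 macrophage markers, all detected, also moved with Spp1 in monocytes, from 795 to 951 CPM in sum in control to 2388 to 2895 CPM in HFD+F+CCl4 and 2255 to 2607 CPM in WD+F+CCl4, and their part in the result was not tested.

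By single cells, 97.1 and 98.9% of control monocytes had no Spp1 UMI, against 61.5 to 80.3% in NASH mice. Among monocytes thinned to 1000 UMIs, 6.82 to 18.9% of cells held an Spp1 UMI in NASH mice (mean 11.1%) against a control mean of 0.292% (exact permutation p = 0.0714, 0.286 adjusted over the types tested). At an equal depth of 1000 UMIs per cell, the share of cells of the monocyte and macrophage class with an Spp1 UMI was 1.38 and 0.277% in control. It was 22.2, 17.1 and 6.55% in HFD+F+CCl4 and 24.6, 13.8 and 15.0% in WD+F+CCl4. The mean of NASH mice was 16.5 ± 6.44% (SD, n = 6) against 0.828% (exact permutation p = 0.0357, 0.286 adjusted over the types tested), and before thinning the shares were 3.68 and 2.01% in control and 14.6 to 42.9% in NASH. At the same depth, B cells gave 1.07 and 4.70% in control and 5.34 to 14.4% in NASH mice, with a mean of 7.37% in NASH. The source of the Spp1 UMIs in B cells was not tested. The control shares of the class lay near or below those of B cells (1.38 against 1.07% and 0.277 against 4.70%). In HFD+F+CCl4 mouse 3 the shares were close (6.55% against 5.87%), the latter from at most 35 B cells. Its summed Spp1 levels lay apart, at 263 CPM in the class and 22.7 CPM in B cells. Thinning left out 12 and 137 control and 81 to 357 NASH cells of the class.

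In the lymphocyte class (T, NK and B cells) a low Spp1 level was higher in WD+F+CCl4. It was 11.5 and 57.6 CPM in control mice, 186, 111 and 76.2 CPM in HFD+F+CCl4, and 189, 116 and 126 CPM in WD+F+CCl4. The log2 fold change was 2.08 (SE 0.61, adjusted p = 0.0751) and 2.45 (SE 0.61, adjusted p = 0.0348), so only that of WD+F+CCl4 was called, and it was 1.28 (adjusted p = 0.291) with predicted doublets removed. Adjusted p of Spp1 was also 0.125 without control mouse 1, 0.0590 without HFD+F+CCl4 mouse 2, and 0.0777 and 0.0727 without WD+F+CCl4 mice 1 and 2. Called members were 2 of 8 in HFD+F+CCl4 (Itgav, Itgb5) and 4 of 8 in WD+F+CCl4 (Spp1, Itgav, Itgb5 higher and Itgb3 lower), beside 6.58 and 11.8% of all genes. Adjusted p of Itgb3 was 0.0601 and 0.0629 without control mouse 1 or 2, and that of Itgav in WD+F+CCl4 was 0.115 without doublets. The summed level of the 6 macrophage markers in lymphocytes was 55.5 to 88.3 CPM in control, 918 to 2223 CPM in HFD+F+CCl4 and 875 to 1550 CPM in WD+F+CCl4, with none at 0. That of 7 cholangiocyte markers was 10.8 to 30.2, 14.2 to 26.0 and 14.1 to 18.5 CPM. The part of macrophage RNA in the lymphocyte values was not tested.

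Whether Spp1 changed more in the monocyte and macrophage class than in lymphocytes was tested on the within-mouse difference. This was 2.38 in NASH and 0.143 in control mice on the log2(CPM + 1) scale, a difference of 2.24 that did not pass (exact permutation p = 0.0714). Between monocytes and T cells it was 1.34 and -1.58, a difference of 2.92 (exact permutation p = 0.0357, adjusted p = 0.0714 over the differences tested). Hence more change in the myeloid cells was not shown after adjustment.

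Other types carried Spp1 at low levels. Granulocytes had 9.74 and 61.8 CPM in control (4 and 2 UMIs), 229, 149 and 88.8 CPM in HFD+F+CCl4, and 703, 168 and 361 CPM in WD+F+CCl4 mice. The change was called in WD+F+CCl4 (log2 4.86, adjusted p = 0.00994) and not in HFD+F+CCl4 (3.40, adjusted p = 0.0749), beside 3.89 and 2.23% of all genes. Itgb5 was the other member called there, in both models. B cells gave a call for Spp1 in WD+F+CCl4 (2.81, adjusted p = 0.0118), and 2 and 3 of 8 members were called there in HFD+F+CCl4 and in WD+F+CCl4, beside 5.1 and 9.99% of all genes. The 6 macrophage markers in B cells, none at 0, summed to 42.6 to 65.9 CPM in control, 284 to 2284 CPM in HFD+F+CCl4 and 992 to 1945 CPM in WD+F+CCl4, and their part was not tested. In plasmacytoid dendritic cells Spp1 was called in WD+F+CCl4 (3.33, adjusted p = 0.0413), with 1 and 3 members in the 2 models beside 3.58 and 7.91% of all genes. Macrophage markers rose from 216 to 433 CPM in sum in control granulocytes to 1456 to 3070 and 1634 to 2163 CPM, and this was not tested as a part of the change. Calls in granulocytes, B cells, dendritic cells, endothelial cells and cycling cells were not refitted with a mouse left out. Endothelial cells had 21.4 and 76.6 CPM in control and 12.8 to 309.9 CPM in NASH mice, which overlapped.

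Over 110 sums of a type in a mouse, the 8 genes with levels most like Spp1 (Pearson r of log2 CPM, 7183 genes with a mean of at least 20 CPM) were Anxa4 (0.78), Pdzk1ip1, Cldn7 and Anxa5 (0.72 each), Fxyd3 and Tspan8 (0.71 each), Bicc1 and Bag1 (0.70 each). The sums share libraries and mice. Anxa4, a calcium-dependent phospholipid-binding annexin, had a mean of 741 CPM in cholangiocytes and 177 CPM in macrophages. Anxa5, a further annexin, had 2499 and 611 CPM, whereas Pdzk1ip1 was almost limited to cholangiocytes, with 642 and 1.17 CPM.

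Cd44, the hyaluronan and osteopontin receptor of leukocytes, was highest in granulocytes, patrolling monocytes, Kupffer cells and monocytes of NASH mice. Granulocytes carried 1005 and 897 CPM in control mice, 861, 662 and 785 CPM in HFD+F+CCl4, and 779, 626 and 559 CPM in WD+F+CCl4. All NASH granulocytes lay below both controls, without a call in the fit. Over all cells, Cd44 was 216 and 247 CPM in control, 402, 324 and 394 CPM in HFD+F+CCl4, and 462, 400.3 and 333 CPM in WD+F+CCl4 (log2 fold changes 0.82, SE 0.21, adjusted p = 0.0352, and 0.99, SE 0.21, adjusted p = 0.0168, by edgeR). Without one control mouse adjusted p was 0.117 and 0.135 in HFD+F+CCl4 and 0.0739 and 0.0789 in WD+F+CCl4, and the calls were also lost without WD+F+CCl4 mouse 2 (0.0656 and 0.0552) and, for HFD+F+CCl4, without its mouse 2 (0.0600) or 3 (0.0846). Within the monocyte and macrophage class its level overlapped between groups, at 552 and 496 CPM in control and 409.5 to 525 CPM in NASH mice (log2 -0.13 and -0.01). In type 2 dendritic cells Cd44 fell by 0.64 (adjusted p = 0.0414) and by 0.77 (adjusted p = 0.0116) on the log2 scale, from 254 CPM in both controls to 138 to 188 CPM, and 2 of 8 members were called there in each model beside 4.82 and 10% of all genes.

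Cholangiocytes of WD+F+CCl4 mice were higher in Cd44. Levels were 45.6 and 44.2 CPM in control mice (14 and 2 UMIs), 205, 141 and 173 CPM in HFD+F+CCl4, and 487 and 210.2 CPM in WD+F+CCl4 mice 2 and 3. All NASH values exceeded both controls. By edgeR the change was called in WD+F+CCl4 (log2 3.04, SE 0.49, adjusted p = 0.0117) and not in HFD+F+CCl4 (1.99, SE 0.48, adjusted p = 0.118), beside 0.611 and 0.468% of all genes, and Cd44 was the 1 member called. Without control mouse 1 or control mouse 2, adjusted p in WD+F+CCl4 was 0.518 and 0.145. In the same cells the 6 macrophage markers summed to 66.3 to 120.4 CPM in control (C1qc and Adgre1 at 0), 531 to 972 CPM in HFD+F+CCl4 and 765 to 1156 CPM in WD+F+CCl4, and granulocyte markers reached 4747 CPM in a WD+F+CCl4 mouse. The part of these cells in the Cd44 level was not tested.

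Itgav encodes the αv subunit, the shared chain of the RGD-binding receptors of osteopontin. Over all cells its level was 31.3 and 30.9 CPM in control mice, 131, 129.8 and 90.5 CPM in HFD+F+CCl4, and 104, 105 and 109 CPM in WD+F+CCl4. The groups lay far apart, with log2 fold changes of 2.01 (SE 0.17, adjusted p = 0.00113) and 1.95 (SE 0.17, adjusted p = 0.000978). These calls held with any mouse left out (highest adjusted p 0.0130). The monocyte and macrophage class carried Itgav at 56.3 and 50.9 CPM in control, 169.5, 181 and 119 CPM in HFD+F+CCl4, and 139, 134 and 141 CPM in WD+F+CCl4. Changes there were 1.51 (SE 0.22, adjusted p = 0.00902) and 1.40 (SE 0.22, adjusted p = 0.0108), and adjusted p was 0.0506 to 0.0835 without one control mouse.

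Within single types Itgav showed the same order. Monocytes carried 50.6 and 46.2 CPM in control and 84.8 to 120.4 CPM in NASH mice (log2 1.00, adjusted p = 0.0326, and 1.05, adjusted p = 0.0221). Without control mouse 1 or 2, adjusted p in monocytes was 0.161 and 0.107 in HFD+F+CCl4 and 0.123 and 0.0790 in WD+F+CCl4, and it was 0.0532 to 0.0655 without HFD+F+CCl4 mouse 2 or 3 or WD+F+CCl4 mouse 1 or 2. T cells carried 31.7 and 27.5 CPM in control, 76.0, 94.2 and 80.3 CPM in HFD+F+CCl4, and 44.9, 53.3 and 68.8 CPM in WD+F+CCl4 (1.50, adjusted p = 0.00522, and 1.03, adjusted p = 0.0188). The latter call was lost without control mouse 1 (0.0659) or 2 (0.0938) or WD+F+CCl4 mouse 2 (0.0527). The T cells of control and NASH mice came mostly from different clusters, and in the cluster that held most NASH T cells the control values were 56.4 and 23.8 CPM, which overlapped with 45.8 to 95.8 CPM in NASH. In cholangiocytes, where the mean NASH level was highest, control (104 and 177 CPM) and NASH mice (154 to 279.9 CPM) overlapped.

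Itgb5, the β5 subunit that pairs with αv, showed the largest change of the 8 genes over all cells. Its level was 8.26 and 9.24 CPM in control mice (296 and 49 UMIs), 275, 222 and 132 CPM in HFD+F+CCl4, and 197, 251 and 215 CPM in WD+F+CCl4. Log2 fold changes were 4.67 (SE 0.31, adjusted p = 0.000640) and 4.85 (SE 0.31, adjusted p = 0.000546), and these calls also held with any mouse left out. In the monocyte and macrophage class it was 57.8 and 38.2 CPM in control, 373, 347 and 202 CPM in HFD+F+CCl4, and 286, 356 and 304 CPM in WD+F+CCl4 (2.54, SE 0.32, adjusted p = 0.00593, and 2.65, SE 0.32, adjusted p = 0.00619). Without control mouse 1, adjusted p was 0.0524 and 0.0526.

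By type, Itgb5 was highest in macrophages and Kupffer cells, with stellate cells of 2 HFD+F+CCl4 mice (624 and 221 CPM) in their range and monocytes next. NASH macrophages carried 405 to 547 CPM, and the 15 and 3 macrophages of the control mice carried 553 and 399.7 CPM from 23 and 3 UMIs (95% Poisson intervals 350.6 to 829.9 and 82.4 to 1168). The few control macrophages thus lay at the NASH level. In monocytes, Itgb5 rose from 39.7 and 23.1 CPM to 145, 178 and 136 CPM in HFD+F+CCl4 and 212, 245 and 135 CPM in WD+F+CCl4 (2.07, adjusted p = 0.00746, and 2.44, adjusted p = 0.00211), the former with an adjusted p of 0.0655 without control mouse 1. Patrolling monocytes had 150.5 CPM in control mouse 1 and 97.8 to 164 CPM in NASH mice.

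Lymphocytes also had more Itgb5, from 3.05 and 3.84 CPM (67 and 7 UMIs) to 71.3, 48.6 and 40.7 CPM and 60.2, 93.1 and 47.2 CPM, with log2 fold changes of 4.01 (SE 0.40, adjusted p = 0.00214) and 4.49 (SE 0.40, adjusted p = 0.00109). Without control mouse 1, adjusted p in HFD+F+CCl4 was 0.0529. Endothelial cells likewise went from 1.86 and 8.51 CPM, or 2 and 1 UMIs, to 45.3 to 99.3 CPM (4.76, adjusted p = 0.00846, and 4.50, adjusted p = 0.0169), the 1 member called in that type beside 1.87 and 1.62% of all genes. The macrophage markers given above for lymphocytes, and a sum of 102 to 181 CPM in control against 1093 to 2366 and 1241 to 1389 CPM in endothelial cells, moved with these levels, and their part was not tested. Lymphocytes held Itgb5 at 37.0 and 41.6% of the all-cell level in control and at 21.9 to 37.1% in NASH mice, while C1qa, a complement gene of macrophages, was at 46.9 and 55.2% and at 21.7 to 41.1%.

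Itgb3, which encodes β3, the αv partner of platelets, endothelium and some leukocytes, was lower over all cells in WD+F+CCl4. Over all cells it was 41.5 and 54.1 CPM in control mice, 24.4, 11.2 and 19.5 CPM in HFD+F+CCl4, and 9.17, 15.2 and 23.3 CPM in WD+F+CCl4. All NASH mice lay below both controls, with log2 changes of -1.26 (SE 0.39, adjusted p = 0.0590) and -1.40 (SE 0.39, adjusted p = 0.0391). Only the latter was called, and it was lost without control mouse 1 (adjusted p = 0.121) or 2 (0.152), HFD+F+CCl4 mouse 3 (0.0520) or WD+F+CCl4 mouse 1 (0.0745) or 2 (0.110). T cells held 64.3 and 69.4 CPM in control, 39.2, 24.4 and 21.8 CPM in HFD+F+CCl4, and 15.3, 25.2 and 13.2 CPM in WD+F+CCl4 (-1.25, adjusted p = 0.0342, and -1.73, adjusted p = 0.00878). Without control mouse 1 these were 0.157 and 0.0642, and the HFD+F+CCl4 call was also lost without control mouse 2 (0.0996) or HFD+F+CCl4 mouse 2 (0.112) or 3 (0.117). Within the cluster of most NASH T cells, control values were 33.5 and 59.5 CPM from 19 and 5 UMIs, against 12.2 to 35.3 CPM in NASH mice, and overlapped. In T cells 4 of 8 members were called in HFD+F+CCl4 and 5 of 8 in WD+F+CCl4, beside 7.04 and 10% of all genes.

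In macrophages, the richest myeloid source of Itgb5, Itgb3 was scarce, at 1.41 to 3.13 CPM in all 6 NASH mice. Patrolling monocytes carried 36.6, 49.1 and 69.0 CPM and 45.0, 64.0 and 70.9 CPM of Itgb3 in the models, against 27.4 CPM in the 30 such cells of control mouse 1. Endothelial cells had 42.8 and 34.0 CPM in control and 49.6 to 114 CPM in NASH mice, without a call. NK cells followed with 27.9 to 65.2 CPM in NASH mice, against a low 10.1 CPM in control mouse 1. Control mouse 2 had 17 NK cells and 13 patrolling monocytes, too few for a level, so these types were not tested between groups. Hence the 2 β partners of αv differed in the types in which they were found.

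Itgb1 encodes β1, the common partner of αv, α4 and α9, and was the least changed. Over all cells it was 289.7 and 244 CPM in control, 327, 285 and 314 CPM in HFD+F+CCl4, and 247, 356 and 368 CPM in WD+F+CCl4, which overlapped (log2 0.31, SE 0.23, adjusted p = 0.376, and 0.45, SE 0.23, adjusted p = 0.198). Endothelial and stellate cells were highest. Endothelial cells had 433 and 349 CPM in control and 569, 687 and 735 CPM and 713 and 749 CPM in the models, which did not overlap and were not called. Stellate cells of 2 HFD+F+CCl4 mice had 719 and 671 CPM. Cycling cells were an exception with a lower level, from 675 and 488 CPM in control to 157 to 293 CPM in NASH mice (-1.23, adjusted p = 0.0193, and -1.19, adjusted p = 0.0187). In cycling cells 5 of 8 members were called in each model, beside 13.9 and 17% of all genes. Control cycling cells came mainly from a cluster with T cell genes (181 and 100 cells, against 33 and 24) and NASH cycling cells mainly from one led by Elane and Mpo, genes of granulocyte progenitors, so these calls compare different cells.

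Itga4 and Itga9 encode the α subunits that read the thrombin-exposed site. Itga4 was highest in patrolling monocytes, with 875 CPM in control mouse 1, 1067, 1123 and 1376 CPM in HFD+F+CCl4, and 1051, 1369 and 1167 CPM in WD+F+CCl4. Over all cells it was 248 CPM in both controls and 317 to 542 CPM in NASH mice, above the controls in 6 of 6, without a call by edgeR (0.85, SE 0.33, adjusted p = 0.110, and 0.82, SE 0.33, adjusted p = 0.116). DESeq2 called it (0.93, adjusted p = 0.0342, and 0.90, adjusted p = 0.0397). On simulated counts over all cells, however, DESeq2 made 77 and 69 false calls, against 4 and 1 by edgeR. The monocyte and macrophage class overlapped, at 604 and 687 CPM in control and 396 to 705 CPM in NASH. In T cells Itga4 rose from 166 and 192 CPM to 253 to 419.9 CPM (1.03, adjusted p = 0.0450, and 1.15, adjusted p = 0.0248), and these calls were lost without control mouse 1 (0.187 and 0.130), control mouse 2 (0.168 and 0.113) or WD+F+CCl4 mouse 2 (0.0632 and 0.0793), and that of HFD+F+CCl4 without its mouse 2 (0.124) or 3 (0.133). Within the cluster of most NASH T cells it did not, with 400.0 and 405 CPM in control and 256 to 424 CPM in NASH mice. In NK cells Itga4 was 749 CPM in control mouse 1 and lower, at 219 to 440 CPM, in NASH mice.

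Itga9 was led by endothelial, Kupffer and stellate cells, the last with 276 and 156 CPM in 2 HFD+F+CCl4 mice. Kupffer cells of NASH mice carried 185, 205 and 161 CPM in HFD+F+CCl4 and 288 and 218 CPM in WD+F+CCl4 mice 2 and 3, and endothelial cells 229.9 and 170.2 CPM in control and 76.5 to 358 CPM in NASH. Over all cells it ranged from 16.5 to 109 CPM in NASH mice against 15.2 and 31.7 CPM in control and overlapped (1.57, SE 0.77, adjusted p = 0.196, and 1.47, SE 0.76, adjusted p = 0.211). In the monocyte and macrophage class it was 8.62 and 33.9 CPM in control, 76.4, 80.7 and 45.9 CPM in HFD+F+CCl4, and 23.4, 58.4 and 95.1 CPM in WD+F+CCl4. EdgeR did not call this (2.33, adjusted p = 0.112, and 2.20, adjusted p = 0.119), whereas DESeq2 did (2.03, adjusted p = 0.0215, and 1.86, adjusted p = 0.0385). On simulated counts of this class DESeq2 made 21 and 20 false calls, against 12 and 7 by edgeR. No pair of neighbouring types in the order of any receptor passed the exact sign-flip permutation test (0 of 98 pairs, lowest adjusted p = 0.255). Itga4 in monocytes exceeded that in granulocytes in 8 of 8 mice, with an exact permutation p of 0.0078, the smallest that 8 mice allow. After adjustment it still did not pass, so the test does not show that neighbours were alike.

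**Figure D5:**
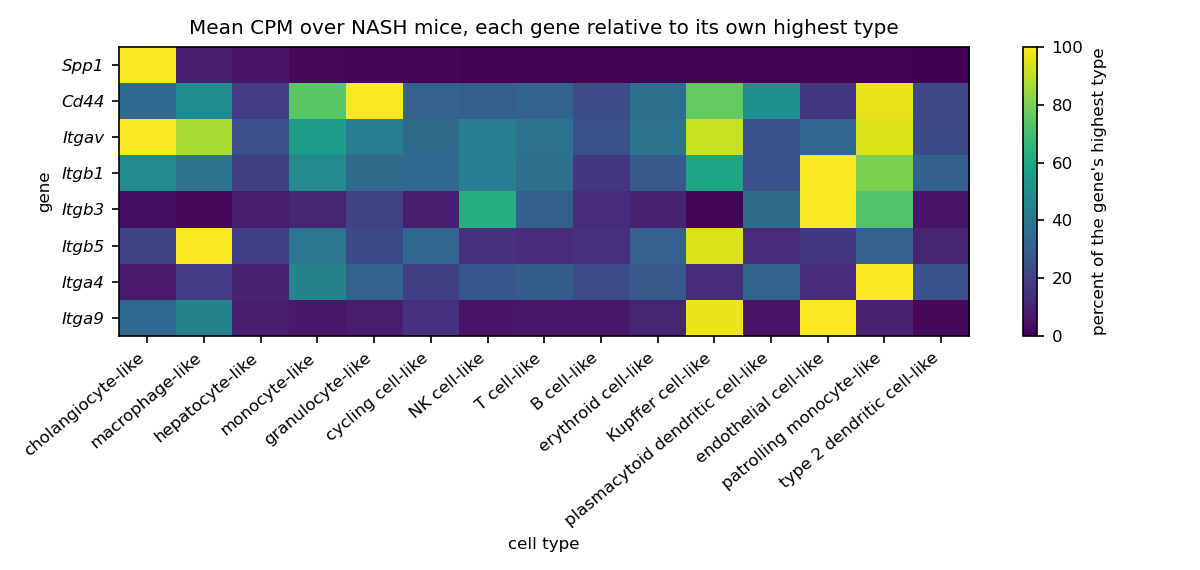
Colour map of the mean CPM of each member (rows) in each cell type of the NASH mice (columns), as percent of that gene's highest type. Spp1 peaked in cholangiocytes with macrophages at 8.50%, Itgb5 in macrophages, Itgav in cholangiocytes with macrophages at 86.7%, and Cd44 in granulocytes.

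Genes around the ligand and its receptors were described by lists. All 8 lipid-associated macrophage genes rose over all cells in both models (median log2 3.52 and 3.31, beside 9.63 and 11% of all genes called higher), among them Trem2, a lipid-sensing receptor (6.34 and 6.28), and Lgals3, which encodes galectin-3 (2.93 and 3.28). Within the monocyte and macrophage class 6 of 8 were higher in each model, where 5.22 and 6.72% of all genes were called in either direction. Of the 6 tested genes for enzymes that modify or cut osteopontin, 3 were higher and 1 was lower over all cells in each model. Of all genes, 18.9 and 21.4% were called there in either direction. Fam20c, the secretory pathway kinase that phosphorylates osteopontin, was higher by 3.94 (adjusted p = 0.000508) and 4.18 (adjusted p = 0.000406). Tgm2, which crosslinks it, was higher by 2.49 and 2.46, and Mmp12, a macrophage metalloproteinase, by 5.92 and 5.77. F2, which encodes prothrombin and is made by hepatocytes, was lower (-3.41, adjusted p = 0.0141, and -4.90, adjusted p = 0.00419). The hepatocyte marker Alb was also lower over all cells, at 1823 and 1895 CPM in control and 42.3 to 664 CPM in NASH mice. The part of the amount of hepatocyte RNA in the F2 value was not tested. Fam20c (2.04 and 2.19) and Tgm2 (1.76 and 1.75) were higher in the monocyte and macrophage class as well.

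Among 9 tested ligands that share these receptors, Thbs1, encoding thrombospondin-1, was higher over all cells (4.11 and 5.01). Vtn, encoding vitronectin, was lower in WD+F+CCl4 (-4.19), and the part of the amount of hepatocyte RNA in this value was not tested. No other ligand was called, beside 18.9 and 21.4% of all genes, so the list did not stand out. In the monocyte and macrophage class Emilin1, an α4 and α9 integrin ligand, was higher (1.13 and 1.40) and Fn1, encoding fibronectin, was lower in HFD+F+CCl4 (-2.42). Of 6 ligands tested there, 1 was higher and 1 was lower in each model, beside 5.22 and 6.72% of all genes. Of the 4 further integrin subunits, only Itga5, the fibronectin receptor chain, was called over all cells, and it was higher (1.40 and 1.42). Of 5 genes for leukocyte integrins built from other subunits, Itgam was higher in both models (1.80 and 2.44) and Itgax in HFD+F+CCl4 (1.78). The calls in these short lists also stand beside 18.9 and 21.4% of all genes. The 12 adaptors and kinases below integrins and CD44 had 0 called in HFD+F+CCl4 and 3 in WD+F+CCl4 (Msn 1.26, Tln1 0.99 and Fermt3 0.53), beside 18.9 and 21.4% of all genes, and medians of 0.31 and 0.35. The other 4 SIBLING genes were too low to be tested.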

How the data were processed

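Single-cell RNA of 8 dissociated mouse livers was measured with the 10x Genomics 3' kit. Per the labels and the study's methods, the authors demultiplexed reads with bcl2fastq 2.20 and counted UMIs per gene and barcode with Cell Ranger on GRCm38. The deposited values are raw UMI counts, whole numbers with no normalization. All 55450 gene IDs matched GENCODE M21. Barcodes with over 500 genes and under 25% mitochondrial UMIs were kept. Each library was scored for doublets at 0.8% per 1000 barcodes, which marked 7452 cells, kept in the main analysis and removed in an alternative.

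Counts were scaled to 10000 per cell, and 2000 variable genes without the 8 members, 30 principal components, 20 neighbours and Leiden resolution 0.42 gave the clusters, named from marker lists (scanpy 1.11.5, Python 3.11.15). Counts were summed per mouse and type and tested with edgeR 4.0.16 (R 4.3.3), by the quasi-likelihood test with TMM and filterByExpr at a minimum count of 10, in 1 fit of the 3 groups with Benjamini-Hochberg adjustment over all genes tested. DESeq2 1.42.0 was an alternative. Exact permutation and sign-flip tests were two-sided and over mice. They used log2(CPM + 1) for levels and percentages for shares of UMIs or cells. With 6 against 2 mice their smallest p is 0.0357, and with 3 against 3 it is 0.1. On simulated counts with 200 genes changed by 2 log2 units, edgeR recovered 35.5% (HFD+F+CCl4) and 39% (WD+F+CCl4) over all cells, 55.5 and 53% in the monocyte and macrophage class, and 82.5% each in lymphocytes. Low recovery limits what a missing call says. Over all cells DESeq2 recovered 63 and 69%, with 77 and 69 false calls, against 4 and 1 false calls by edgeR. False calls limit what a call by DESeq2 alone says.

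The 8 members are named in every comparison, and other genes of the pathway as counts per list with at most 4 examples, those with the smallest adjusted p. The members and lists were chosen with earlier results of these data known. A replicate is a mouse, and its number in the labels did not pair mice. Intervals cover counting error only.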

Additional observations from a re-analysis of the deposited data

Results flagged for a closer look

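Differences between cell classes in the NASH against control contrast were flagged 3 times, each with an exact permutation p of 0.0357, the smallest that 6 against 2 mice allow, and an adjusted p of 0.0714, so that none passed after adjustment. For Spp1, the level in monocytes minus that in T cells, within a mouse and in log2(CPM + 1), was 1.34 in NASH and -1.58 in control mice, 2.92 apart. For Itgb5, the level in the monocyte and macrophage class minus that in lymphocytes was 2.38 in NASH and 3.44 in control mice, -1.06 apart. Itga4 gave 0.522 and 1.48 between the same classes, -0.962 apart. Control monocytes and control T cells came mostly from other clusters than those of NASH mice. No group held 4 mice, so no single mouse could be tested as an outlier.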

How the results depend on the processing

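Spp1 changes that were called kept their direction under all alternatives run. Of those not called, the sign turned in cholangiocytes for WD+F+CCl4 against control without WD+F+CCl4 mouse 3 (-0.17) and for WD+F+CCl4 against HFD+F+CCl4 in cholangiocytes without WD+F+CCl4 mouse 2 (0.29) or doublets (0.02), in monocytes without WD+F+CCl4 mouse 1 (-0.41), and in lymphocytes (-0.46) and T cells (-0.31) without doublets. Replicate numbers in the labels did not pair mice (correlations of 7 same-numbered pairs from -0.647 to 0.0899), and a fit with the replicate block gave 2.20 (adjusted p = 0.0674) over all cells in HFD+F+CCl4 and 2.70 (adjusted p = 0.0688) in lymphocytes in WD+F+CCl4, so these 2 calls were lost. Clustering at Leiden resolution 0.8 gave 3.59 (adjusted p = 0.0551) in the monocyte and macrophage class in HFD+F+CCl4. In lymphocytes, no filter on low counts gave 2.08 (adjusted p = 2.18e-15) in HFD+F+CCl4, while library size scaling gave 2.22 (adjusted p = 0.0560) and removal of doublets 1.28 (adjusted p = 0.291) in WD+F+CCl4. Thinning to 2000 UMIs put the share of monocyte and macrophage class cells with an Spp1 UMI 21.3 percentage points higher in NASH (exact permutation p = 0.143). A pseudocount of 10 gave a class difference of 2.24 (exact permutation p = 0.0357). The cause was not tested.

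Leaving out each mouse in turn gave log2 fold changes of Spp1 of 1.74 to 2.48 (HFD+F+CCl4) and 2.33 to 2.82 (WD+F+CCl4) over all cells, 3.52 to 5.33 and 4.03 to 6.09 in the monocyte and macrophage class, and 1.23 to 3.36 and 1.60 to 3.73 in lymphocytes. NASH minus control, the UMI share of the monocyte and macrophage class differed by 44.7 to 54.2 percentage points. Its share of cells with an Spp1 UMI differed by 14.1 to 17.7 percentage points. The class difference was 0.387 to 4.08, and the sub-cluster difference 2.29 to 2.60. Genes called over all cells numbered 3730 and 4227, and 1279 and 1722 with the replicate block, 5076 and 5506 by DESeq2, and 2314 in HFD+F+CCl4 with only the 2 groups compared. In the monocyte and macrophage class they numbered 843 and 1086, 235 and 199 with the block, 1589 and 1775 by DESeq2, and 1478 and 1645 without a filter. In lymphocytes they numbered 914 and 1646, 312 and 789 with the block, 2450 and 2823 without a filter, and 307 and 721 without doublets. Leaving out each mouse gave 2016 to 3418 and 2299 to 4642 genes over all cells, 45 to 1097 and 46 to 1393 in the monocyte and macrophage class, and 66 to 1052 and 446 to 1866 in lymphocytes. Between the 2 models 0 genes were called, and up to 46, 104 and 469 in these sets under the other alternatives. Control mouse 2 and the few control macrophages, Kupffer cells and stellate cells limit what could be tested, and depth limits low genes such as Itgb3 in macrophages.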

Other observations

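In WD+F+CCl4 mouse 1, the liver with 2 captured cholangiocytes, Spp1 over all cells was 1009.8 CPM while Clu, a cholangiocyte gene, was at 7.71 CPM. In the same mouse granulocytes held 9.84% of the Spp1 UMIs.

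Spp1 in lymphocytes stood at 8.35 and 25.8% of the all-cell level in control mice and at 12.7 to 22.3% in NASH mice. For Clu these shares were 18.5 and 29.7% in control and 3.50 to 16.2% in NASH mice, and for Itgav 79.8 and 91.8% in control and 46.0 to 85.4% in NASH mice.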
